A study of Mus musculus with 22 samples.

Results

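Expression of 10 target genes of the transcription factor p53 was followed in sorted fetal liver haematopoietic stem cells: Mdm2, Ccng1, Phlda3, Trp53inp1, Zmat3, Aen, Eda2r, Fas, Sesn2 and Plk2. The 10 genes were taken by name, with earlier results of these data known. All 10 were among the 22180 genes that had a probe with a single gene symbol. Each of the 10 had 1 such probe. Livers of wild-type C57Bl/6J mouse embryos at E14.5 were placed on a layer of OP9-DL1, mouse stromal cells engineered to present Dll1, a ligand of Notch receptors. The cultures received DMSO, the solvent, or a gamma-secretase inhibitor (GSI) at 1 µM, which blocks the cleavage that activates Notch receptors, and cells were sorted as SLAM LSK stem cells afterwards. After 4 h of culture there were 7 DMSO and 7 GSI arrays, and after 10 h there were 4 of each, with 1 sample per array, and each DMSO sample had a GSI partner of the same biological replicate. Every group had been on Notch ligand stroma, so no array shows cells without it. None of the arrays was a freshly sorted sample, and no group received an agent that activates p53.

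p53 is a transcription factor that cells stabilise after DNA damage and other stresses. It raises transcription of genes that arrest the cell cycle, promote cell death, dampen growth signalling, or, in the case of Mdm2, remove p53 itself. In haematopoietic stem cells p53 is known for its part in quiescence and in the response to radiation. Its activity is set mainly at the protein level, which arrays do not measure.

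Values are log2 expression. Levels and changes over time are given after all 22 arrays had been quantile normalized together, because the deposited medians per array were 5.03 to 5.12 at 4 h and 4.45 to 4.52 at 10 h. Codes in the sample descriptions, whose meaning is not stated, put the 4 h pairs into 3 runs and the 10 h pairs into 2, and none held both times, which means that an effect of time and one of run cannot be told apart. These are bulk samples, in which fewer cells of a type and less RNA per cell cannot be told apart. Of 7 stem cell and sort genes measured, 2 fell from 4 h to 10 h in DMSO (Procr and Mecom) and 1 in GSI (Procr), and 1 rose in both (Slamf1), with a median change of -0.52 in DMSO and -0.40 in GSI. Of all genes, 15.2% fell and 18.7% rose in DMSO, and 17.0% fell and 19.1% rose in GSI. Kit averaged 9.88 at 4 h and 9.47 at 10 h, Slamf1, which encodes the SLAM marker CD150, 3.85 and 5.27, and Procr, a stem cell surface receptor, 9.07 and 7.27. Ly6a, which encodes Sca-1, was not analysed here. The number of arrays limits the precision.

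p53 binds DNA as a tetramer, through pairs of half-sites. Promoter windows from RefSeq (GRCm38.p6, 250 bases before to 50 after a gene's start) were found for 8 of the 10 genes (Aen has 2 overlapping ones, of which 1 is shown), and the windows of the 4 members with p53-like letters are shown with Cdkn1a, the classical p53 target, for comparison. Capitals mark a match to the p53 half-site consensus in Mdm2, Ccng1, Aen and Cdkn1a, and a pair of half-site cores in Plk2. Positions count from the gene's start, with no 0.
Mdm2, chr10:117710709-117711008, minus strand: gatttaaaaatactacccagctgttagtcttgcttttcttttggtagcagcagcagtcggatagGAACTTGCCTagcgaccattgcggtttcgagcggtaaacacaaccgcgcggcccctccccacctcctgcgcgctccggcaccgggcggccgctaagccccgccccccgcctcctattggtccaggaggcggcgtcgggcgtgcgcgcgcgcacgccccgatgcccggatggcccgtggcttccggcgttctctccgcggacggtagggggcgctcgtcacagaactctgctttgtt
Ccng1, chr11:40755237-40755536, minus strand: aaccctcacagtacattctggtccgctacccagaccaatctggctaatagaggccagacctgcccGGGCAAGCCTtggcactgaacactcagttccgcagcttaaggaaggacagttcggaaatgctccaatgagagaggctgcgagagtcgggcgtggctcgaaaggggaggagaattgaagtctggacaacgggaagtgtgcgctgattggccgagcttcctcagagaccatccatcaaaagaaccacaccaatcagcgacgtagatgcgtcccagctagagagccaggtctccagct
Aen, chr7:78895808-78896107, plus strand: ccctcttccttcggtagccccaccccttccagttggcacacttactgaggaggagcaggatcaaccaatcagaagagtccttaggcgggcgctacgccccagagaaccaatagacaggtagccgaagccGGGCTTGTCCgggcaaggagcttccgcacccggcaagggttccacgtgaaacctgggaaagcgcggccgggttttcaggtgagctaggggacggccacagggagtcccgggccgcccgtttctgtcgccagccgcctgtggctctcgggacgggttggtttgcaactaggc
Plk2, chr13:110394794-110395093, plus strand: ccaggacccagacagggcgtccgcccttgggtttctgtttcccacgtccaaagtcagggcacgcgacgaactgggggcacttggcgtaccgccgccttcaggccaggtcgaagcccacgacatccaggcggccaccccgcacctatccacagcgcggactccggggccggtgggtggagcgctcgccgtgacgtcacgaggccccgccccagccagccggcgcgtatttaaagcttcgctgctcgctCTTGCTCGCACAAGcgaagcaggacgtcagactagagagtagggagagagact
Cdkn1a, chr17:29090729-29091028, plus strand: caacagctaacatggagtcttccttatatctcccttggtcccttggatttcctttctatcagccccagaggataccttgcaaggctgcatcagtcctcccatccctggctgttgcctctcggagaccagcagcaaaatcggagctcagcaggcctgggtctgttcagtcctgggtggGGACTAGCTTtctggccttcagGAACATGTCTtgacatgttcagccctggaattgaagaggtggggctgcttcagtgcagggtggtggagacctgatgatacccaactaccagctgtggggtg

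The half-site consensus, searched on both strands, was in 3 of the 8 members with a window, and 8.36% of all 32851 windows held it. The matches were GAACTTGCCT at -186 in Mdm2, GGGCAAGCCT at -185 in Ccng1 and GGGCTTGTCC at -121 in Aen. A pair of half-site cores at tetramer spacing was in Aen and Plk2, and in 7.22% of all windows. The Aen pair, CTTGTCCGGGCAAG at -118, overlaps the Aen half-site, and the Plk2 pair, CTTGCTCGCACAAG, begins at -3. The narrower form CATGNNNNNNCATG, a case of the core pair, was in 0.712% of windows and in no member, while Cdkn1a held it as CATGTCTTGACATG at -48, overlapping its second half-site. The cyclic AMP response element TGACGTCA was in 1.79% of windows and, among the members, in Plk2 at -62. A match is a description of letters. Of the 4 members with p53-like letters, Mdm2 and Plk2 changed with time on the arrays and Ccng1 and Aen did not pass the test, as given next.

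The comparison of 10 h with 4 h in DMSO shows how the 10 genes differed between the lengths of culture. Of the 10, 8 fell: Plk2, Sesn2, Trp53inp1, Eda2r, Fas, Phlda3, Mdm2 and Zmat3. Changes of the 8 ran from -0.62 log2 for Zmat3 to -2.51 for Plk2. Ccng1 and Aen did not pass. The test was limma with a Benjamini-Hochberg adjusted p under 0.05 over all genes, which 33.9% of all genes passed in either direction, 15.2% downwards and 18.7% upwards. The median change of the 10 genes was -1.30, against 0.04 over all genes. As the 10 were chosen with earlier results known, values over all genes serve as background and do not test the set. In 6 of the 10 the change was at least 1 log2 unit down, as in 4.40% of all genes, and in 3 at least 2 log2 units down, as in 0.703%. In 3 of the 10, every 10 h array lay below every 4 h array, as in 9.12% of all genes.

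The comparison within GSI uses other arrays from the same biological replicates, so it is no separate set of animals. The same 8 genes fell in GSI, with changes from -0.75 log2 for Zmat3 to -2.90 for Plk2, where 36.1% of all genes passed, 17.0% downwards and 19.1% upwards. The median change of the 10 was -1.39, against 0.03 over all genes. For all 8, every 10 h array was below every 4 h array, as for 10.9% of all genes. In 5 of the 10 the change was at least 1 log2 unit down (4.52% of all genes), and in 2 at least 2 (0.879%).

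**Figure D1:**
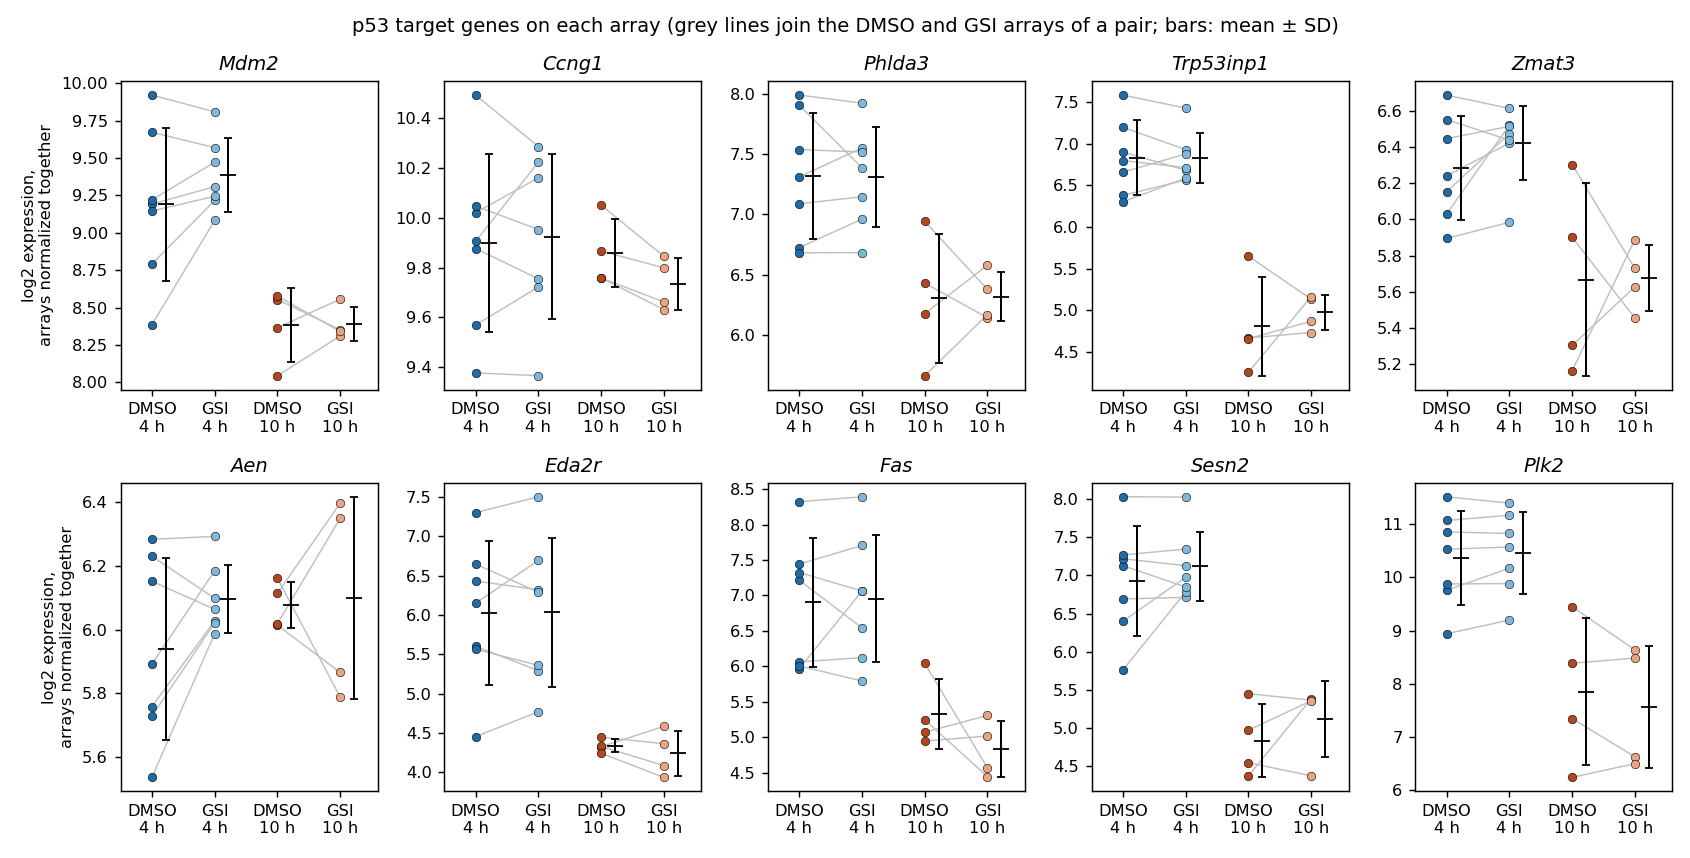
Log2 expression of the 10 p53 target genes on each of the 22 arrays, all normalized together, with 1 panel per gene, group on the x axis, grey lines joining the DMSO and GSI arrays of a pair, and bars for the mean ± SD. For Plk2 the 4 h arrays sit between 8.94 and 11.52 and the 10 h arrays between 6.24 and 9.45, while the Ccng1 and Aen groups overlap.

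Mdm2 (Entrez 17246, chromosome 10) encodes the ubiquitin ligase that marks p53 for degradation and is itself a p53 target. Its DMSO level at 4 h ran from 8.39 to 9.92 with a median of 9.19, and at 10 h the 4 arrays read 8.36, 8.55, 8.04 and 8.58. The lowest 4 h array, replicate 1, lay inside the 10 h range, so the groups overlap. The change was -0.80 ± 0.246 (SE; 95% interval -1.34 to -0.27), a 1.75-fold fall (limma adjusted p = 0.0242, n = 7 and 4). In GSI the 4 h arrays ran from 9.08 to 9.81 and the 10 h arrays from 8.31 to 8.56. There the groups do not overlap, and the change was -0.996 ± 0.132 (limma adjusted p = 0.000232).

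Of the cell cycle genes, Plk2 fell furthest and Ccng1 did not pass. Plk2 (Entrez 20620, chromosome 13) encodes a polo-like kinase that acts in centriole duplication and is induced by stress and by growth signals. In DMSO its level at 4 h ran from 8.94 to 11.52 with a median of 10.53, and the 10 h arrays read 8.38, 9.45, 7.34 and 6.24. The 10 h arrays of replicates 1 and 2 were more than 1 log2 unit above those of replicates 3 and 4, and replicate 2 lay above the lowest 4 h array. The mean went from 10.36 ± 0.888 (SD) to 7.85 ± 1.38, a 5.71-fold fall (change -2.51 ± 0.570 SE, limma adjusted p = 0.00587). In GSI the 10 h arrays read 8.48, 8.64, 6.63 and 6.50, all below the lowest 4 h array at 9.20, and the fall was 7.46-fold (limma adjusted p = 0.000935).

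Ccng1 (Entrez 12450, chromosome 11) encodes cyclin G1, which brings the phosphatase PP2A to Mdm2. Its DMSO mean was 9.90 ± 0.359 (SD) at 4 h and 9.86 ± 0.138 at 10 h. The change of -0.04 has a 95% interval from -0.41 to 0.33 (limma adjusted p = 0.877), and that in GSI of -0.19 one from -0.53 to 0.15 (limma adjusted p = 0.370). The groups overlap in both treatments.

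The genes of death receptors and cell death regulators split into those that fell and Aen. Fas (Entrez 14102, chromosome 19) encodes the receptor that starts apoptosis when bound by Fas ligand. In DMSO its level at 4 h ran from 5.97 to 8.32 with a median of 7.21, and the 10 h arrays read 6.04, 5.25, 4.95 and 5.07. Only replicate 1 at 10 h reached the 4 h range, and the fall was 2.99-fold (change -1.58 ± 0.428 SE, limma adjusted p = 0.0140). In GSI the 10 h arrays read 4.57, 4.45, 5.02 and 5.31, below the lowest 4 h array at 5.79, and the fall was 4.34-fold (limma adjusted p = 0.00220).

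Eda2r (Entrez 245527, chromosome X) encodes a receptor of the tumour necrosis factor family that binds ectodysplasin A2. Its DMSO level at 4 h ran from 4.45 to 7.30 with a median of 6.15, the widest spread of any member in that group. The 10 h arrays read 4.32, 4.44, 4.33 and 4.24. The groups do not overlap, but the gap between 4.44 and the lowest 4 h array, replicate 1 at 4.45, is narrow. The fall was 3.22-fold (change -1.69 ± 0.404 SE, limma adjusted p = 0.00764), and 3.47-fold in GSI (limma adjusted p = 0.00622).

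Trp53inp1 (Entrez 60599, chromosome 4) encodes a stress-induced nuclear protein that enhances p53 activity. Its DMSO level at 4 h ran from 6.30 to 7.59 with a median of 6.80, and the 10 h arrays read 5.65, 4.67, 4.66 and 4.25. Every 10 h array was below every 4 h array, in GSI too, where the 4 h arrays ran from 6.57 to 7.43 and the 10 h arrays from 4.73 to 5.16. The fall was 4.07-fold in DMSO (change -2.03 ± 0.280 SE, limma adjusted p = 0.000384) and 3.61-fold in GSI (change -1.85 ± 0.166 SE, limma adjusted p = 2.32e-05).

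Phlda3 (Entrez 27280, chromosome 1) encodes a pleckstrin homology domain protein that inhibits the survival kinase Akt. Its DMSO level at 4 h ran from 6.68 to 7.99 with a median of 7.31, and the 10 h arrays read 6.18, 6.94, 6.43 and 5.66. Replicate 2 at 10 h lay within the 4 h range. The change was -1.02 ± 0.294 SE in DMSO (limma adjusted p = 0.0189) and -0.99 ± 0.208 in GSI (limma adjusted p = 0.00322), where the groups do not overlap.

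Aen (Entrez 68048, chromosome 7) encodes a nuclease that promotes apoptosis. Its DMSO level ran from 5.54 to 6.28 at 4 h, and the 10 h arrays read 6.16, 6.01, 6.11 and 6.02, inside that range. The change was 0.14 in DMSO (95% interval -0.20 to 0.47, limma adjusted p = 0.519) and 0.0036 in GSI (95% interval -0.29 to 0.30, limma adjusted p = 0.988). Its direction depends on the scale: on the deposited values, where all genes shift down by a median of 0.41 in DMSO and 0.42 in GSI, the Aen change was -0.56 and -0.64 and passed.

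Sesn2 (Entrez 230784, chromosome 4) encodes a stress-induced leucine sensor that restrains the growth kinase complex mTORC1. Its DMSO level at 4 h ran from 5.76 to 8.03 with a median of 7.13, and the 10 h arrays read 4.37, 5.45, 4.97 and 4.54. The groups do not overlap in either treatment. The fall was 4.27-fold in DMSO (change -2.09 ± 0.356 SE, limma adjusted p = 0.00122) and 3.99-fold in GSI (limma adjusted p = 0.000220).

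Zmat3 (Entrez 22401, chromosome 3) encodes a zinc finger protein that binds RNA and affects splicing. Its DMSO level at 4 h ran from 5.90 to 6.69, and the 10 h arrays read 5.16, 6.30, 5.90 and 5.30, of which replicates 2 and 3 reached the 4 h range. The change was -0.62 ± 0.223 SE, a 1.54-fold fall (limma adjusted p = 0.0480), the closest to the threshold of the 8. In GSI, where the groups do not overlap, it was -0.75 ± 0.134 (limma adjusted p = 0.00134).

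**Figure D2:**
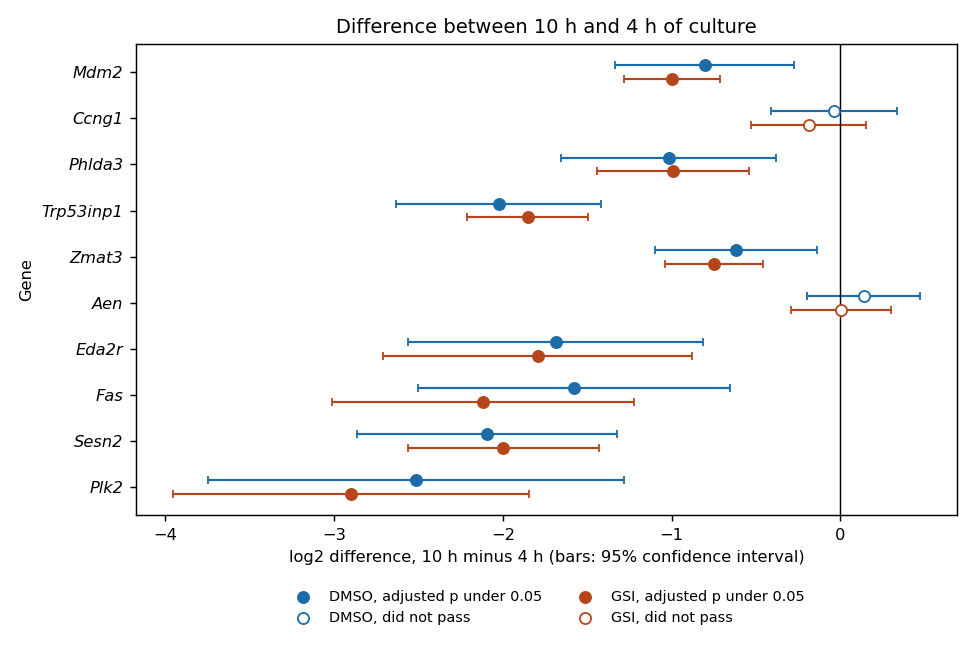
Change from 4 h to 10 h of each of the 10 genes (x axis, log2 difference, 10 h minus 4 h) in DMSO and in GSI, with bars for the 95% confidence interval and filled points for genes that passed limma's test. Plk2 lies furthest left, at -2.51 in DMSO and -2.90 in GSI, and the intervals of Ccng1 and Aen include 0.

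The DMSO result rests on few 10 h arrays. Without DMSO replicate 1 at 10 h, 5 of the 10 genes passed instead of 8, and Mdm2, Phlda3 and Zmat3 did not. Of all 22180 genes, 5970 passed there in either direction, against 7523 with every array. Leaving out any other DMSO array gave 6 to 8, where 6175 to 7488 of all genes passed. Leaving out any GSI array gave 8, where 6371 to 8078 did. By run, DMSO gave 2 of 10 (Sesn2 and Trp53inp1) with only runs 1 and 2 at 4 h, where 3250 of all 22180 genes passed. The same 2 passed with only run 4 at 10 h, where 3958 of all genes did. Both counts of 2 are near the background, and all of the 8 were still lower in each case. The count was 8 with only run 3 at 4 h (6803 of all genes) and 6 with only run 5 at 10 h (5401 of all genes). In GSI the counts by run were 6 to 9, where 3938 to 7704 of all genes passed.

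Markers of endothelial cells, the lining of liver vessels, fell with time, as did 8 of the 10 genes. All 7 of 7 endothelial markers (Cdh5, Kdr, Stab2, Lyve1, Emcn, Tek and Egfl7) fell in both treatments, by a median of 1.85 log2 in DMSO and 2.19 in GSI. Their mean level ran from 8.07 to 10.7 in DMSO and 8.23 to 10.6 in GSI at 4 h, and from 6.76 to 8.44 and 6.54 to 8.19 at 10 h. At 4 h Cdh5 averaged 10.61 and Lyve1 10.63, and at 10 h 8.23 and 8.15. Tek and Emcn are also known from stem cells. Stab2 and Lyve1 are known from liver sinusoidal endothelium. Replicate 1 at 4 h, the lowest of its group in these markers, lay within the 10 h range in DMSO (8.07) and just above it in GSI (8.23). Its mean of the 10 genes was 6.90 in DMSO and 7.28 in GSI, and the highest 10 h array had 6.69.

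With the endothelial mean as a covariate, an alternative chosen after these values were seen, 0 of 10 genes passed in DMSO and 1 of 10 in GSI, where 6.68% and 5.06% of all genes passed, so that these counts are near the background. The one that passed was Trp53inp1 (change -1.57 ± 0.273 SE, limma adjusted p = 0.0114). The median change of the 10 genes with the covariate was -0.04 in DMSO and -0.56 in GSI, against 0.04 and 0.03 over all genes. In DMSO, Trp53inp1 and Sesn2 kept changes of -1.25 and -1.003 that did not pass (limma adjusted p = 0.0608 and 0.176), and the Plk2 change went from -2.51 to -0.04. The marker mean itself differed between the times, and its part in the result was not tested. Of the hepatocyte markers, 6 of 8 fell in DMSO and 3 of 8 in GSI, and their mean ran from 5.76 to 9.33 in DMSO at 4 h and from 5.27 to 5.73 at 10 h (in GSI from 5.99 to 9.06 and from 4.80 to 6.89). Of the stromal markers 1 of 10 fell in DMSO and 7 of 10 in GSI, with means from 6.09 to 7.54 and from 5.62 to 6.95 in DMSO (in GSI from 6.01 to 7.40 and from 5.09 to 6.40). Of the macrophage markers 1 of 8 and 3 of 8 fell, with means from 6.03 to 7.68 and from 5.52 to 6.43 in DMSO (in GSI from 5.97 to 7.79 and from 5.48 to 6.20). These marker counts are without the covariate, where 15.2% of all genes fell in DMSO and 17.0% in GSI. The part of these cell types in the result was not tested.

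**Figure D3:**
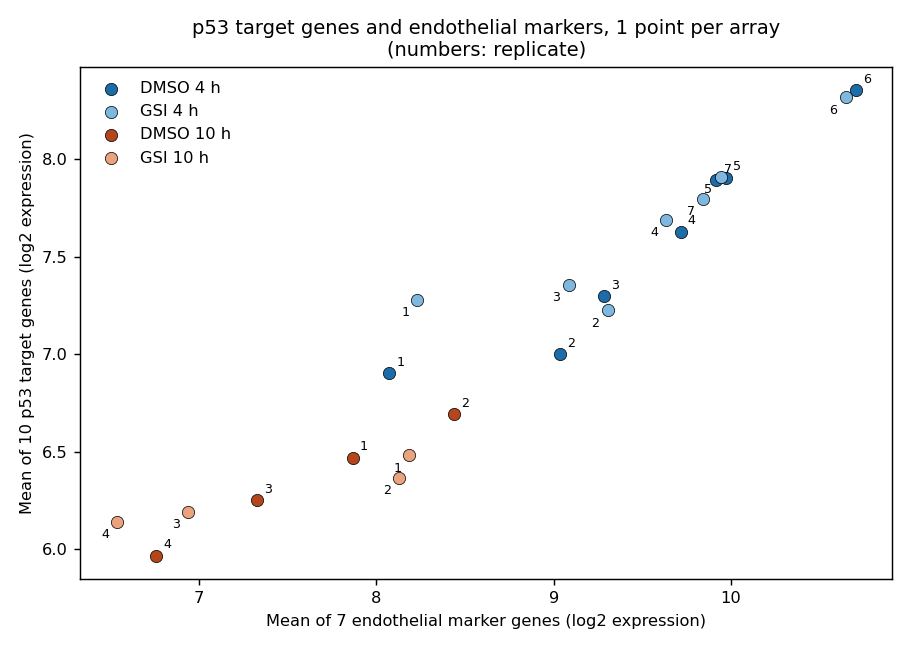
Mean log2 level of the 10 p53 target genes (y axis) against that of 7 endothelial markers (x axis) on each of the 22 arrays, with the replicate number beside each point. Replicate 6 at 4 h is highest on both axes (10.7 and 8.36 in DMSO), and replicate 1 at 4 h has 8.07 and 6.90 in DMSO and 8.23 and 7.28 in GSI.

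Immediate-early genes, which cells switch on within minutes of a stimulus or of handling, fell over the same interval. In DMSO 12 of 13 fell, with a median change of -1.87, led by Nr4a1 (-2.64) and Egr1 (-2.28). In GSI 13 of 13 fell, with a median of -1.88, led by Nr4a1 (-2.98) and Fos (-2.65). Their mean ran from 8.40 to 10.0 on the DMSO arrays at 4 h and from 6.85 to 7.55 at 10 h, and in GSI from 8.60 to 9.89 and from 6.79 to 7.24. Of Atf4, the factor of amino acid stress that also regulates Sesn2, and genes tied to it, 2 of 10 fell in DMSO (Atf4 itself and Chac1) and 3 of 10 in GSI (also Slc7a11), where 15.2% and 17.0% of all genes fell. The largest changes there were Chac1 (-0.80) and Phgdh (0.59, which did not pass) in DMSO, and Chac1 (-0.92) and Slc7a11 (-0.84) in GSI. The part of these responses in the falls of the 10 genes was not tested.

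Of 24 other p53 targets listed, 21 were measured, and most of them did not pass. Of the 21, in DMSO 5 fell, 1 rose and 15 did not pass, where 15.2% of all genes fell and 18.7% rose, with a median change of -0.26. Cdkn1a, which encodes the cell cycle inhibitor p21, went from 10.51 ± 0.757 (SD) to 8.33 ± 0.450, a 4.53-fold fall (limma adjusted p = 0.00100), with every 10 h array below every 4 h array. Btg2, an antiproliferative gene, fell by 2.17 log2, Ddit4, an inhibitor of mTORC1 signalling, by 1.50, Ephx1, an epoxide hydrolase, by 1.32, and Bbc3, which encodes the death protein Puma, by 0.70. Pidd1, a scaffold of caspase activation, rose by 0.80, which on the deposited scale is 0.18 and does not pass. In GSI 7 fell, 1 rose and 13 did not pass, where 17.0% of all genes fell and 19.1% rose, with a median of -0.05. The largest falls were Cdkn1a (-2.71), Btg2 (-2.09) and Ephx1 (-1.69), Bbc3 fell by 0.79, and Pidd1 rose by 0.58 (0.018 on the deposited scale, which does not pass). Bax, Gadd45a and Ddb2 were not analysed here.

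**Figure D4:**
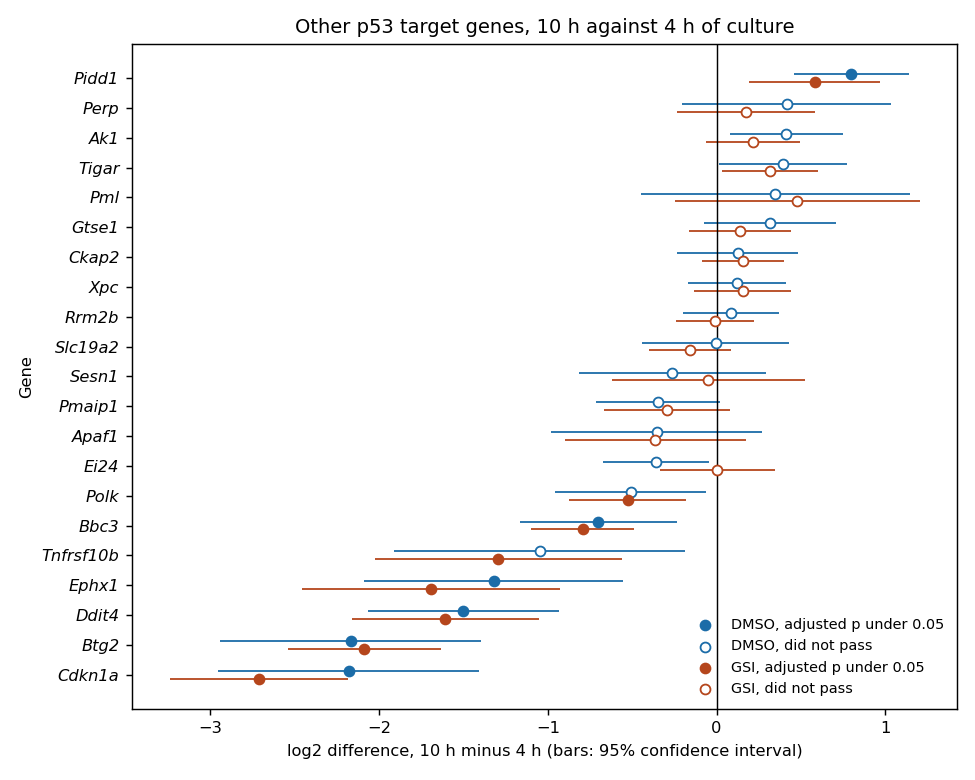
Change from 4 h to 10 h (x axis, log2 difference, 10 h minus 4 h) of the 21 other p53 target genes measured, in DMSO and GSI, with bars for the 95% confidence interval and filled points for genes that passed limma's test. Cdkn1a and Btg2 lie at -2.18 and -2.17 in DMSO, and Pidd1 at 0.80 (0.18 on the deposited scale).

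Of 22 genes that regulate p53, 21 were measured, most of which did not pass, and Trp53 itself was not analysed here. In DMSO 3 rose and 5 fell, where 18.7% and 15.2% of all genes did. The rises were those of the checkpoint kinases Chek1 (0.53) and Atr (0.44) and of the p53 relative Trp63 (0.43); all 3 turn negative on the deposited scale, at -0.0058, -0.095 and -0.072. The largest falls were Ppp1r13b (-1.46) and Ppp1r13l (-0.63), which encode the p53-binding proteins ASPP1 and iASPP, and the kinase gene Hipk2 (-0.46). In GSI 5 rose and 4 fell, where 19.1% and 17.0% of all genes did, with the damage kinases Atm (0.76) and Prkdc (0.69) and Chek1 (0.53) as the largest rises (0.25, 0.15 and 0.052 on the deposited scale, none of which passed) and Ppp1r13b (-1.41), Hipk2 (-0.54) and Ppp1r13l (-0.52) as the largest falls. Mdm4, the Mdm2 relative that binds p53, had differences of 0.0040 in DMSO and 0.11 in GSI and did not pass; on the deposited scale, with its shift of all genes, the values were -0.45 and -0.29 and passed. Cdkn2a, which encodes the Mdm2 inhibitor Arf, had -0.0024 and 0.04 and did not pass either; on the deposited scale the values of Cdkn2a were -0.61 and -0.57 and passed.

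The comparison of GSI with DMSO asks whether blocking gamma-secretase changed the 10 genes, pair by pair, and it uses the deposited values. At 4 h 0 of 10 passed limma's test (0.00451% of all genes passed, which is 1 gene), and 1 of the 10, Mdm2, had an unadjusted p under 0.05. The changes ran from -0.0041 for Phlda3 to 0.20 for Mdm2, all at limma adjusted p = 0.999. The 95% intervals of the 10 reached from -0.33 to 0.51, so that a change of more than 0.51 log2 up or 0.33 down lies outside all of them. Mdm2 was higher in GSI in 5 of 7 pairs, with differences of 0.71, 0.44, 0.14, 0.24, -0.11, -0.10 and 0.09 in replicates 1 to 7. The largest differences were those of replicates 1 and 2, from runs 1 and 2.

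At 10 h 0 of 10 passed in limma (0.667% of all genes passed, which is 148 genes), and 0 had an unadjusted p under 0.05. Fas had the largest change, -0.46 ± 0.241 SE (95% interval -0.97 to 0.05, limma adjusted p = 0.411). Its 4 pairs differed by -1.34, -0.75, 0.06 and 0.20, so that both pairs of run 4 were lower in GSI and neither pair of run 5 was. The difference of Plk2 was -0.26 (95% interval -0.60 to 0.07), and that of Sesn2 0.24 (-0.17 to 0.66). The intervals of the 10 reached from -0.97 to 0.66, wider than at 4 h, where there were more pairs. The intervals of both times rest on a spread shared by both. The SD of the 4 pair differences had a median of 0.487 over the 10 genes at 10 h, against 0.241 at 4 h. The 10 h intervals may therefore be too narrow.

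Over both times together 0 of 10 passed in limma (0.320% of all genes, 71 genes), with changes from -0.20 for Fas to 0.22 for Sesn2 and 0 at an unadjusted p under 0.05. The test of the difference between the GSI effects at 10 h and 4 h found 0 of 10 (0.0180% of all genes, 4 genes), with differences from -0.51 for Fas to 0.13 for Trp53inp1, limma adjusted p from 0.601 to 0.968 and 0 at an unadjusted p under 0.05. Of the other p53 targets and the regulators 0 of 21 and 0 of 21 passed at either time. The difference of Cdkn1a was 0.31 ± 0.103 SE at 4 h (limma adjusted p = 0.999) and -0.14 ± 0.136 at 10 h (limma adjusted p = 0.702).

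**Figure D5:**
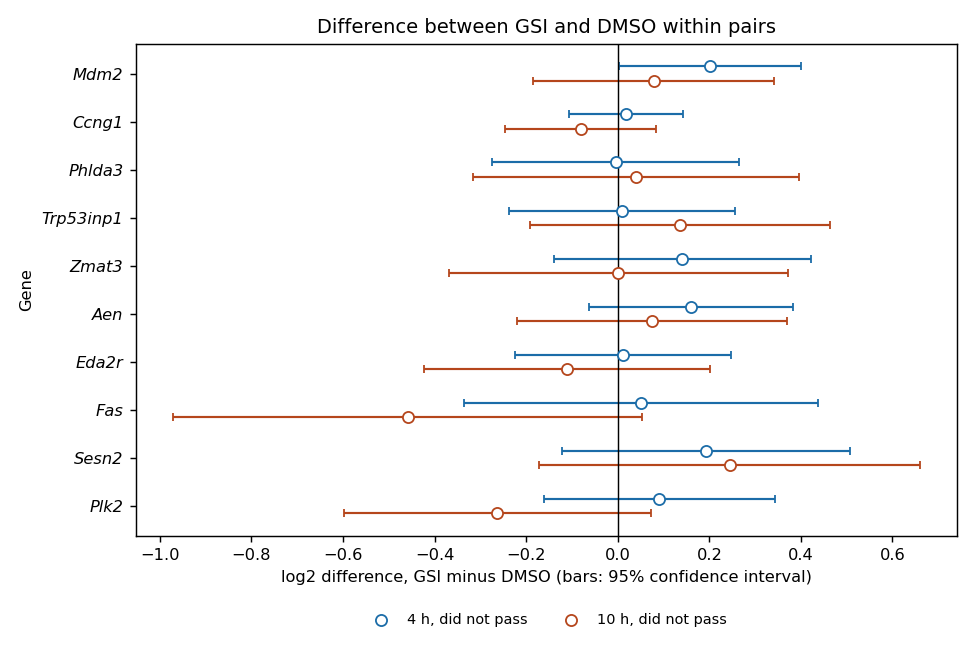
Mean difference between GSI and DMSO within pairs (x axis, log2 difference, GSI minus DMSO, deposited values) of each of the 10 genes at 4 h and at 10 h, with bars for the 95% confidence interval and open points because no gene passed limma's test. Differences at 4 h lie between -0.0041 and 0.20, and the widest bar at 10 h is that of Fas, from -0.97 to 0.05. The bars rest on a spread shared by both times and may be too narrow at 10 h.

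At 4 h the level of most of the 10 genes varied more from pair to pair than their GSI minus DMSO difference did. The SD of the 7 pair means had a median of 0.400 over the 10 genes, against 0.155 over all genes, and the SD of the 7 pair differences a median of 0.241, against 0.206. The ratio of both SDs was above 1 in 8 of the 10 genes, all but Zmat3 (0.983) and Aen (0.646), and its median was 1.55, against 0.771 over all genes. Of all genes, 36.1% had a ratio as large as that of Zmat3. A ratio as large as that of Sesn2 (1.22), the lowest of the 8, was found in 25.7%. The ratio was largest for Plk2, at 4.24, which 1.06% of all genes reached, and for Eda2r, at 2.64, which 5.20% reached. At 10 h the median ratio was 0.606, against 0.648 over all genes, and 2 of the 10 were above 1, Plk2 (2.15) and Ccng1 (1.61). Ratios as large as these were found in 4.27% and 8.89% of all genes.

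The same pairs were often the highest or lowest among the 10 genes. How often these pairs were extreme over all genes was not counted. At 4 h replicate 6 had the highest pair mean in 8 of the 10 genes and replicate 7 in the other 2, while the lowest was replicate 2 in 5 genes, replicate 1 in 3 and replicate 3 in 2. Run 3 holds replicates 4 to 7. Plk2 pair means averaged 9.07 in run 1, 9.92 in run 2 and 10.99 in run 3, and Eda2r 4.61, 5.45 and 6.67. Replicate 6 was also highest in endothelial markers (10.7 in DMSO) and lowest in the stem cell sort genes, at 7.42 in DMSO against 8.28 or more on the other DMSO arrays at 4 h.

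Over the 7 pairs at 4 h, the pair mean of every gene was set against the endothelial mean, with exact permutation p-values (2-sided) adjusted over all 22180 relations. Of all genes 4.05% passed by Pearson's r, and of the 10 genes Plk2 and Eda2r did. Plk2 gave r = 0.983 (exact permutation p = 0.000397, adjusted 0.0327) and Spearman's rho = 0.964 (exact permutation p = 0.00278, adjusted 0.0422). Eda2r gave r = 0.987 (exact permutation p = 0.000595, adjusted 0.0360) and the same rho. Phlda3 passed by rho, also 0.964, but not by r (0.883, exact permutation p = 0.00714, adjusted 0.0774), and Mdm2 passed by neither (r = 0.927, exact permutation p = 0.00556, adjusted 0.0687). How many of all genes passed by rho was not counted, so the passes by rho have no background beside them. The other 6 had positive r from 0.539 to 0.799 and did not pass. Values of r as high as theirs were found in 12.2% (Sesn2) to 25.8% (Zmat3) of all genes. Of all genes, 25.4% had an unadjusted exact permutation p under 0.05 by Pearson's r. Without replicates 1 and 6, the farthest from the median of the endothelial level, r was 0.989 for Plk2, 0.972 for Eda2r, 0.919 for Phlda3 and 0.688 for Mdm2, and among the other 6 it was 0.063 for Trp53inp1, down from 0.732, and 0.786 to 0.986 for the rest. No run held 6 pairs, so no value within a run is given; run 3 held the 4 highest endothelial levels.

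Within the groups, the 10 genes also varied with each other. After each group's mean was removed, all 45 correlations between the 10 genes over the 22 arrays were positive, with a median r of 0.554 and a range from 0.03 to 0.819. The arrays of a pair share a biological replicate, so these are not 22 separate replicates. Without replicate 6 at 4 h, 43 of 45 were positive, with a median of 0.446. Correlations within other sets of genes were not computed. Phlda3 followed the mean of the other 9 most closely (r = 0.913, which 0.329% of all genes reached), then Eda2r (0.829, 2.42%). Aen followed it least (0.383, which 20.4% reached). The rest lay between, from 0.768 for Sesn2 (5.24% of all genes) to 0.546 for Zmat3 (13.7%). The 5 other genes most like the mean of the 10 were App (r = 0.975), Tulp4 (0.965), Mmrn2 (0.959), Adam9 (0.947) and Ndel1 (0.942). Mmrn2 is known as an endothelial matrix gene, and it fell by 1.91 log2 with time in DMSO (limma adjusted p = 0.0295), while App, at -0.40 (limma adjusted p = 0.362), did not pass.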

How the data were processed

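RNA of sorted SLAM LSK cells was hybridised to 22 1-colour arrays. The deposited values are log2 expression, which the authors computed by RMA in Partek 6.6 according to the submitters' processing notes; the genome build is not given in the sources used here. The table has 41345 probes, of which 23521 had 1 gene symbol, 1814 several (left out) and 16010 none (left out). The probe with the highest mean was kept per gene (22180 genes), with no filter on dim probes. Tests used limma 3.58.1 in R 4.3.3 (lmFit, eBayes with trend, 2-sided, Benjamini-Hochberg over all genes, adjusted p under 0.05). GSI was tested on deposited values of all 22 arrays with the pair as a fixed block, and time on 11 arrays per treatment after joint quantile normalization. Whether both times were normalized together by the authors is not stated.

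The design text pairs each DMSO sample with a GSI sample. Deviations from group means correlated within pairs at r = 0.223 to 0.872 at 4 h and 0.213 to 0.449 at 10 h. The partner was the GSI array most like the DMSO array in 6 of 7 pairs at 4 h and 4 of 4 at 10 h. The exception was replicate 4 at 4 h (r = 0.223). The highest correlation between any arrays was 0.988, and at most 48 probe values were identical, so none was a copy. The tests were tried on simulated data with known changes. The simulated noise was independent between arrays, without pair or run effects, so no result here rests on that trial.

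The members and gene lists were chosen with earlier results of these data known. All 10 members are named. Of the other p53 targets and regulators, Cdkn1a, Bbc3, Mdm4 and Cdkn2a are always named, with the genes that passed (if over 6, the 3 largest rises and falls). Of the immediate-early and Atf4 lists the 2 largest changes are named, and of like genes the first 5. Alternatives were other scales, blocks, filters, runs and left-out replicates.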

Additional observations from a re-analysis of the deposited data

Results flagged for a closer look

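In groups of 7 or 4 arrays or pairs, the most extreme value was set against the spread of the others with Dixon's test. The test was at the 95% level, on the deposited values. Of 60 groups looked at, 3 had a value past the critical limit, and chance alone gives about 1 in 20. The Mdm2 level of the GSI array of replicate 1 at 10 h was 8.252, above the other 3. The GSI minus DMSO difference of Phlda3 in pair 5 at 4 h was -0.506, below the other 6 pairs. The Sesn2 level of the GSI array of replicate 4 at 10 h was 4.042, below the other 3, and without that array the fall of Sesn2 over time in GSI was 1.75 log2 and still passed limma's test.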

How the results depend on the processing

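Of the 10 genes, 0 passed under GSI at either time, over both times or for the difference between times in every alternative tried, except within run 2 at 4 h, where Sesn2 passed (change 0.79, limma adjusted p = 0.0412), 1 of 10, among 148 genes called. The count of all genes called moved more. For GSI at 10 h (148 genes) it was 37 after joint quantile normalization, 63 after cyclic loess, 0 with no replicate block, 19 with the spread set by time, 2 with that time alone and the replicate block, 0 within run 4, 15 within run 5, 285 with a filter on dim genes, and 27 to 228 with 1 pair left out. For GSI at 4 h (1 gene) it was 0 with no replicate block, 3 with the spread set by time, 2 with that time alone, and 1 to 3 with 1 pair left out. For the mean over both times (71 genes) it was 43 after joint normalization, 2 with no replicate block, 35 with the spread set by time, 162 with the dim filter, and 20 to 136 with 1 pair left out. For the difference between times (4 genes) it was 0 after joint normalization, 2 after cyclic loess, 0 with no replicate block, 0 with the spread set by time, and 0 to 7 with 1 pair left out.

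For time in DMSO (8 of the 10; 7523 genes) the deposited values gave 13348 genes, 12884 of them lower, with 9 of the 10; values centred on each array's median gave 11695, 9314 of them higher, with 8. The dim filter gave 4065, runs 1 and 2 at 4 h 3250 (2 of the 10), run 4 at 10 h 3958 (2 of the 10), and the endothelial covariate 1481 (0 of the 10). Leaving out 1 array gave 5970 to 7488 genes and 5 to 8 of the 10. For time in GSI (8 of the 10; 8001 genes) the same alternatives gave 14895, 12301, 4497, 4992, 3938 and, with the covariate, 1123 (1 of the 10), and run 5 at 10 h 5302; leaving out 1 array gave 6371 to 8078 genes and 8 of the 10. With the pair as a random block (replicate block) time gave 8640 genes in DMSO and 7922 in GSI, and 8 of the 10 in each. With run as a random block, 7 and 8 of the 10 passed.

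Directions turned on the deposited values for Aen (-0.56 in DMSO, -0.64 in GSI), Mdm4 (-0.45, -0.29), Atr (-0.095, -0.14), Trp63 (-0.072, -0.27), Chek1 in DMSO (-0.0058) and Cdkn2a in GSI (-0.57), where the median of all genes shifts by -0.41 in DMSO and -0.42 in GSI. With the endothelial covariate they turned, among genes that had passed, for Mdm2 (0.034) and Phlda3 (0.12) in DMSO and for Eda2r (0.015) and Atm (-0.020) in GSI, and among the 10 genes also for Ccng1 (0.42 in DMSO, 0.18 in GSI) and Aen in GSI (-0.23), which had not passed and did not pass there; the cause was not tested. Time and run cannot be told apart, and no detection calls were used, so no limit for signal over background is given.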
